A study of Mus musculus with 6 samples.

Results

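The 10 genes described here, Glul, Oat, Slc1a2, Cyp2e1, Cyp1a2, Tbx3, Axin2, Lgr5, Rnf43 and Znrf3, were taken by symbol from the 23282 genes of a count table of primary mouse hepatocytes, and all 10 were found in it. They are pericentral target genes of Wnt signalling, that is, genes switched on in the hepatocytes around the central vein of the liver lobule. The rule that chose them names symbols and uses no measured value. The hepatocytes came from livers of C57BL6/N mice by collagenase perfusion, were given 3 h to attach, and were then kept for a further 24 h. The 3 control samples received no treatment and the 3 IL-1β samples received the recombinant cytokine. The labels give neither the age and sex of the mice nor the IL-1β dose of these cultures, and they do not say how many mice a sample came from. RNA was read by QuantSeq 3′ mRNA-Seq, which makes 1 read from near the 3′ end of each captured mRNA, in single-end reads of 75 nt. Hepatocytes of all lobule zones were pooled by the isolation, and a culture has no central vein, so a lower level in fewer cells and a lower level in every cell cannot be told apart in these samples.

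In the liver lobule, endothelial cells of the central vein secrete the ligands Wnt2 and Wnt9b and the enhancer Rspo3. The ligands bind Frizzled receptors with the coreceptors Lrp5 and Lrp6 on neighbouring hepatocytes, β-catenin is spared from degradation, and with TCF/LEF factors it activates the pericentral genes. Among these are enzymes and transporters that do the work of the zone (Glul, Oat, Slc1a2, Cyp2e1, Cyp1a2) and genes that act back on the pathway or mark cells that receive it (Axin2, Lgr5, Tbx3, Rnf43, Znrf3).

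Library totals ranged from 9538741 to 11105408 counts, and 3 counts in a library, taken as the lower limit of detection, were worth between 0.269 and 0.321 CPM. CPM here are counts scaled to a common library total after TMM normalization, which balances the libraries for composition. The ribosomal precursor Rn45s took between 11.7% and 14.2% of the counts of a library. The sum of 10 hepatocyte markers was between 29900 and 30000 CPM in the control samples and between 25200 and 26700 CPM after IL-1β, and 9 of the 10 fell (median log2 fold change -0.34), or 7 by DESeq2 and 5 without IL-1β replicate 1. The most abundant of the 10 were Alb, Fgb, Trf and Apoa1, and Fgb was not among the 9 that fell.

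Of the 10 genes, 3 passed the test. Cyp1a2 fell by 64.5%, Cyp2e1 fell by 16.8%, and Slc1a2 rose 2.48-fold. Glul, Oat, Tbx3, Rnf43 and Znrf3 had enough counts to be tested and did not pass the test, and Axin2 and Lgr5 were at the limit of detection. In the quasi-likelihood test of edgeR with Benjamini-Hochberg adjustment over the 11657 genes tested, 1 of the 8 tested genes was higher and 2 were lower at an adjusted p below 0.05, where 6.97% of all tested genes were higher and 6.44% were lower. Their median log2 fold change (IL-1β minus control) was 0.01, beside -0.002 over all tested genes. The sign of this median was not stable, since it was -0.13 without control replicate 2 and 0.10 without control replicate 3. The CPM of the 10 genes added up to between 436 and 465 in the control samples and between 294 and 301 after IL-1β. Most of this sum was Cyp1a2 (mean 213 CPM in control and 75.6 CPM after IL-1β) and Cyp2e1 (166 and 138 CPM). The fall of the sum is therefore mainly theirs and does not describe the other genes. The counts given for the other gene lists stand beside the same background, 6.97% higher and 6.44% lower over all tested genes.

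**Figure D1:**
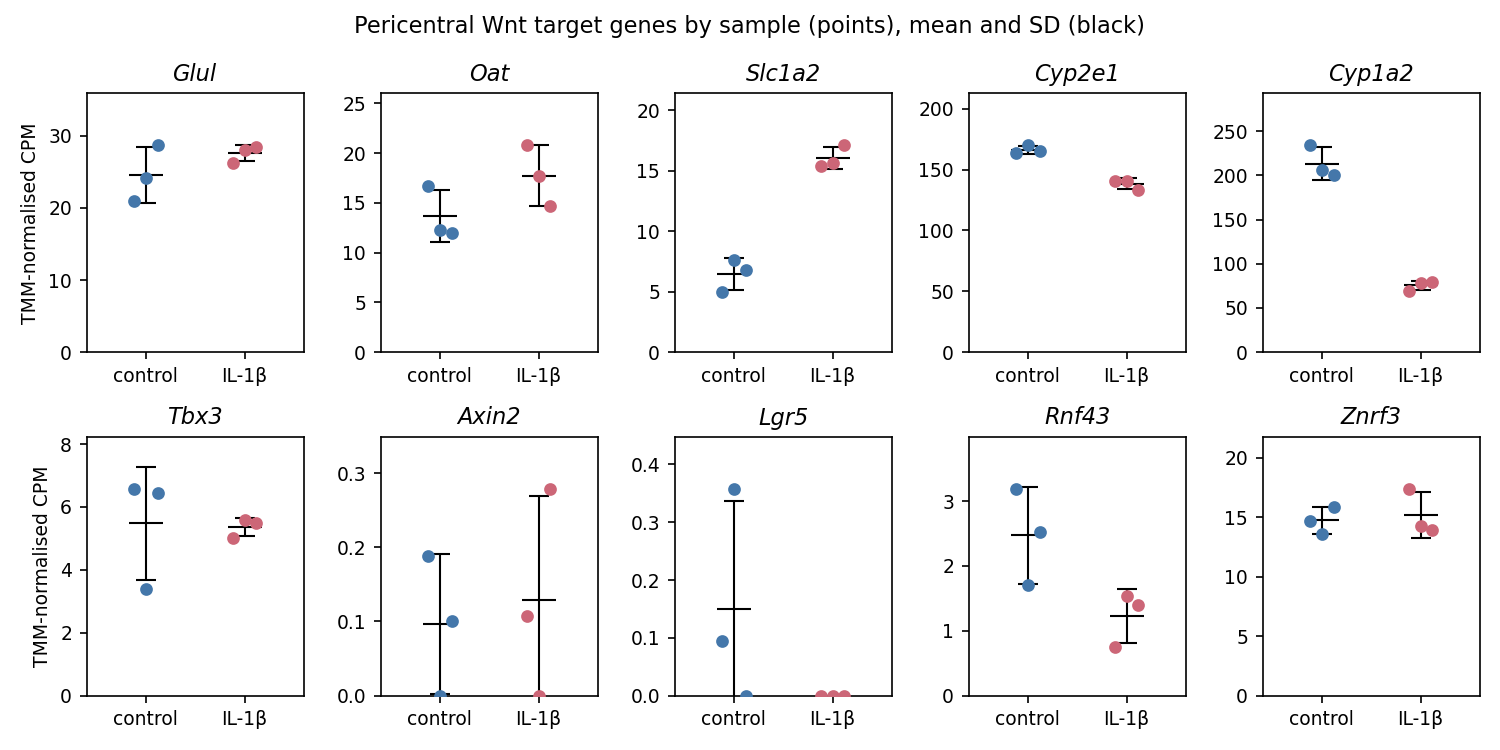
Level of each of the 10 pericentral Wnt target genes in each sample, as TMM-normalised CPM on an axis that starts at 0, in control (blue) and IL-1β (red) hepatocytes, with the mean and SD of the 3 samples in black; an SD that reaches below 0 is drawn only to 0. The Cyp1a2, Cyp2e1, Slc1a2 and Rnf43 points of the groups do not overlap, and the Axin2 and Lgr5 points all lie below 0.4 CPM.

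RefSeq start sites were at hand for 7 of the 10 genes, in 8 windows of GRCm38.p6 (Rnf43 has 2), while Lgr5, Tbx3 and Znrf3 had none. The TCF/LEF core CTTTGA, looked for on both strands in the 250 bases before the start, was found in the windows of Cyp2e1 and Cyp1a2, which fell, and of Slc1a2, which rose. That is 3 of 8 windows, where 13.8% of the 32851 RefSeq windows of this length hold the core. The stretches are shown for the genes whose window holds the core, a choice that did not use their change. The capitals mark the core (TCAAAG where it lies on the other strand). For Cyp2e1 the stretch is chr7:140763569-140763738, plus strand, for Cyp1a2 it is chr9:57683704-57683905, minus strand, and for Slc1a2 it is chr2:102706188-102706355, plus strand, each read 5′ to 3′ from 250 bases upstream and ending before the first annotated exon base:
Cyp2e1: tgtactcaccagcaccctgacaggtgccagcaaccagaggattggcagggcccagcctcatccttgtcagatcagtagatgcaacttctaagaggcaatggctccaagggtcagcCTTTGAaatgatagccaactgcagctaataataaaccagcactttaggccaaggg
Cyp1a2: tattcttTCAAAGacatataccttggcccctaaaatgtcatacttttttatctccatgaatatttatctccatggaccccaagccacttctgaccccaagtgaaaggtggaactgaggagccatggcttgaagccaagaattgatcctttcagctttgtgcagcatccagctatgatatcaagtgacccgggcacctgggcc
Slc1a2: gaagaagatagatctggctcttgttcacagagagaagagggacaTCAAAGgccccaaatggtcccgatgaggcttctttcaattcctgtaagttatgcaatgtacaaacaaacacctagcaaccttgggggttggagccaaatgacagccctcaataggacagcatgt
The core lay 135 bases upstream of the start in Cyp2e1, 243 in Cyp1a2 and 206 in Slc1a2, whose window precedes a start inside the annotated gene. Slc1a2 held another core 77 bases upstream, outside the printed stretch, and the longer form CTTTGAT, which contains the core and occurs in 3.21% of windows, at 207 bases. The dioxin-response core GCGTG, which the aryl hydrocarbon receptor binds and 28.2% of windows hold, was found only in 1 Rnf43 window, 71 bases upstream. The C/EBP palindrome TTGCGCAA, the NF-κB form GGACTTTCC and the HNF4 form CAAAGTCCA had no match in the 8 windows, and 0.164%, 0.283% and 0.384% of all windows hold them. A match is only a run of letters, and binding was not measured here.

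**Figure D2:**
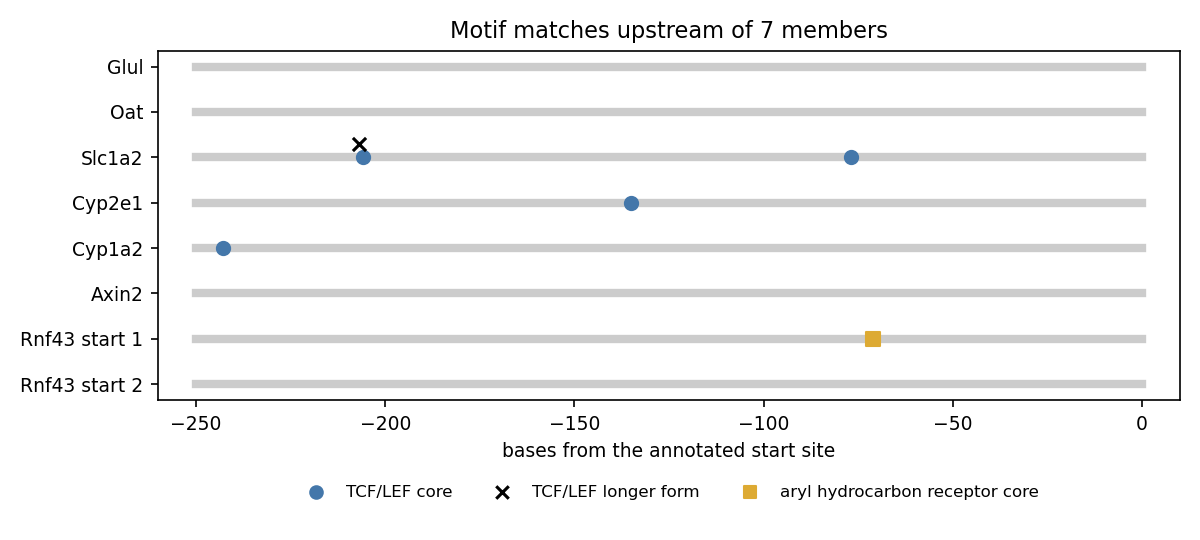
Positions of motif matches in the 250 bases upstream of the RefSeq start sites of 7 of the genes (grey bars, 2 starts for Rnf43), in bases from the start site, with the TCF/LEF core as circles, its longer form as a cross and the aryl hydrocarbon receptor core as a square. The windows of Slc1a2, Cyp2e1 and Cyp1a2 hold the TCF/LEF core, and those of Glul, Oat, Axin2 and Rnf43 do not.

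Glul encodes glutamine synthetase, which joins ammonia to glutamate in the last rows of cells before the central vein. The gene lies on the plus strand of chromosome 1 (chr1:153899929-153909723, GRCm38). Its level was 20.9, 24.1 and 28.7 CPM in the control samples and 26.3, 28.1 and 28.4 CPM after IL-1β. The IL-1β samples all lay within the upper part of the control range, and the groups overlapped. The mean was 24.6 ± 3.95 CPM (SD, n = 3) in control and 27.6 ± 1.13 CPM (SD, n = 3) in IL-1β samples, and the log2 fold change was 0.17 (SE, its estimated error, 0.13, adjusted p = 0.481 from edgeR). The 95% interval ran from 0.936-fold to 1.35-fold. Of the 75-nt stretches at the 3′ end of its transcripts, 4.74% also occur in a pseudogene or an unnamed transcript. Reads from these stretches could be counted elsewhere, and their share of all reads of the gene was not measured.

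Oat encodes ornithine aminotransferase, the mitochondrial enzyme that turns ornithine towards glutamate in the same cells that hold glutamine synthetase. It lies on the minus strand (chr7:132557475-132576398). The control samples held 16.7, 12.3 and 12.0 CPM and the IL-1β samples 20.8, 17.7 and 14.7 CPM. Of the IL-1β samples, 2 were above every control sample and 1 was below the highest control. The log2 fold change was 0.37 (SE 0.17), with an unadjusted p of 0.0396 and an adjusted p of 0.181 from edgeR, and the interval ran from 1.01-fold to 1.65-fold. Without control replicate 1, the highest control sample, it was 0.54 with an adjusted p of 0.0338. The annotated interval of Fgfr2, on the same strand, covers Oat, and Fgfr2 itself was counted 52, 84 and 51 times in control and 61, 80 and 114 times in IL-1β libraries.

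Slc1a2 encodes the glutamate transporter GLT-1, which brings glutamate into the pericentral cells (chr2:102658683-102790784, plus strand). It was the 1 gene of the 10 that rose. Control samples had 4.98, 7.61 and 6.75 CPM, from 53, 85 and 67 counts, and IL-1β samples had 15.4, 15.6 and 17.1 CPM, from 144, 162 and 184 counts. Every IL-1β sample was above every control sample, with a wide gap between the groups. The mean went from 6.45 ± 1.34 to 16 ± 0.943 CPM (SD, n = 3 each), a log2 fold change of 1.31 (SE 0.19, adjusted p = 1.65e-05 from edgeR) or 2.48-fold with a 95% interval of 1.89-fold to 3.27-fold. An exact permutation test of the 6 values gave a two-sided p of 0.1, the smallest that 3 samples against 3 allow. Leaving out any 1 sample kept the log2 fold change between 1.15 and 1.46.

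Cyp2e1, the cytochrome P450 that oxidises ethanol and paracetamol, lies on the plus strand (chr7:140763832-140774977). Control samples had 164, 170 and 165 CPM, and IL-1β samples had 141, 141 and 133 CPM. The samples of a group lay close together and the groups did not overlap. The mean fell from 166 ± 3.06 to 138 ± 4.32 CPM (SD, n = 3 each), a log2 fold change of -0.26 (SE 0.069, adjusted p = 0.00985 from edgeR), with an interval of 0.754-fold to 0.919-fold. With single samples left out, the log2 fold change stayed between -0.27 and -0.24, and the adjusted p from edgeR ran from 0.00793 to 0.0625. The adjusted p was above 0.05 only without IL-1β replicate 3 (log2 fold change -0.24), and it was 0.0495 without control replicate 2. Of its 75-nt 3′ stretches, 7.8% also occur in transcripts of other genes.

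Cyp1a2, the cytochrome P450 that metabolises caffeine and is induced through the aryl hydrocarbon receptor, lies on the minus strand (chr9:57676937-57683655). It had 234, 206 and 200 CPM in control samples and 69.7, 78.1 and 79.0 CPM in IL-1β samples. Every IL-1β sample was far below every control sample. The mean fell from 213 ± 18.2 to 75.6 ± 5.13 CPM (SD, n = 3 each), a log2 fold change of -1.49 (SE 0.08, adjusted p = 2.85e-13 from edgeR) with an interval of 0.316-fold to 0.398-fold. None of its 3′ stretches occurs in another gene's transcripts. Leaving out any 1 sample kept it between -1.54 and -1.42.

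Tbx3 encodes a T-box transcription factor that β-catenin activates in liver cells (chr5:119670862-119684724, plus strand). Control samples had 6.58, 3.40 and 6.45 CPM, and IL-1β samples had 5.02, 5.57 and 5.48 CPM. The IL-1β values lay within the control range, which control replicate 2 set at its lower end. The log2 fold change was -0.02 (SE 0.28, adjusted p = 0.976 from edgeR), and the interval, 0.658-fold to 1.47-fold, leaves room for a change of either sign.

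Axin2 and Lgr5 are the usual reporters of active Wnt signalling. Axin2 encodes a scaffold of the complex that degrades β-catenin (chr11:108920349-108950781, plus strand), and Lgr5 encodes a receptor for R-spondins (chr10:115450314-115587780, minus strand). Axin2 was counted 2, 0 and 1 times in control and 1, 0 and 3 times in IL-1β libraries. Lgr5 was counted 1, 4 and 0 times in control libraries and 0 times in each IL-1β library. The summed Axin2 counts were 3 (exact Poisson 95% interval 0.619 to 8.77) in control and 4 (1.09 to 10.2) in IL-1β libraries, and those of Lgr5 were 5 (1.62 to 11.7) and 0 (up to 3.69), intervals that cover counting error only. Both genes were removed by the filter on low counts. When all 16189 genes with a count were tested, the adjusted p was 0.936 for Axin2 and 0.401 for Lgr5 by edgeR. The upper interval bound after IL-1β was 0.336 CPM for Axin2 and 0.121 CPM for Lgr5, so only a rise above such a level would have been seen, and a fall from the control counts was not detectable at this depth.

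Rnf43 and Znrf3 encode sister ubiquitin ligases that remove Frizzled receptors from the cell surface and so dampen Wnt signalling, and R-spondins bound to Lgr receptors clear both. Rnf43 (chr11:87663087-87735539, plus strand) was counted 34, 19 and 25 times in control and 7, 16 and 15 times in IL-1β libraries, which is 3.19, 1.70 and 2.52 CPM against 0.748, 1.54 and 1.39 CPM. The groups did not overlap, but control replicate 2 and IL-1β replicate 2 were only 3 counts apart. The log2 fold change was -0.99 (SE 0.45), with an unadjusted p of 0.0382 and an adjusted p of 0.176 from edgeR, and the interval ran from 0.264-fold to 0.96-fold. The gene 1110028F11Rik, annotated within the Rnf43 interval on the same strand, was counted 35, 35 and 25 times in control and 7, 9 and 18 times in IL-1β libraries, and how reads of overlapping genes were assigned is not given in the sources used here.

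Znrf3 lies on the minus strand of the same chromosome (chr11:5276329-5444847). It had 14.7, 13.6 and 15.9 CPM in control samples and 17.4, 14.3 and 13.9 CPM in IL-1β samples. The groups overlapped almost entirely. The log2 fold change was 0.04 (SE 0.16, adjusted p = 0.918 from edgeR), and its interval was 0.822-fold to 1.29-fold. With total-count scaling its sign turned, to -0.01.

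**Figure D3:**
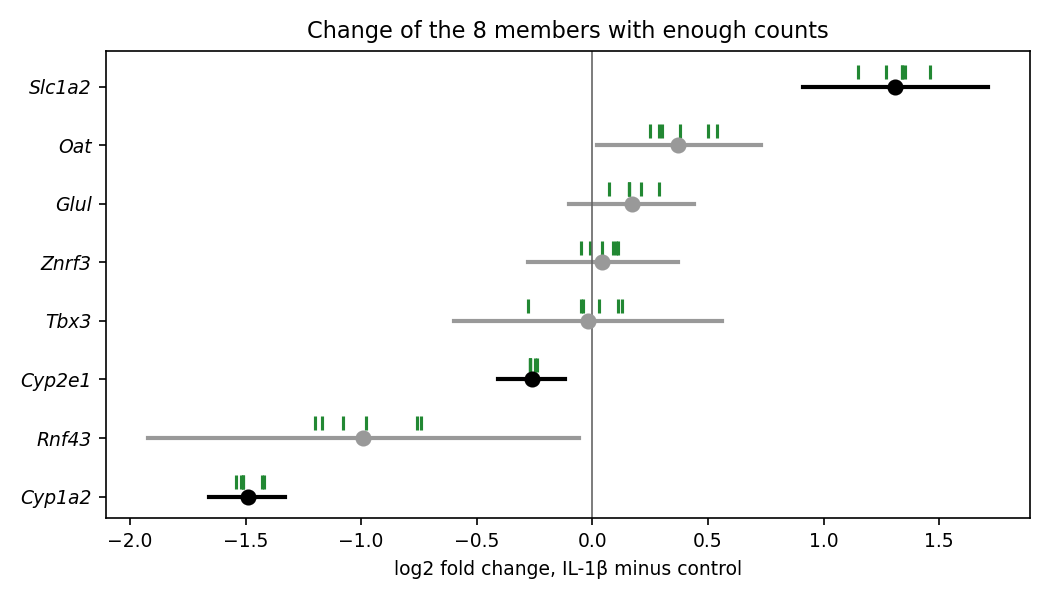
Log2 fold change (IL-1β minus control) of the 8 tested genes from edgeR, with 95% intervals as horizontal lines, black where the adjusted p was below 0.05 and grey elsewhere; the green ticks above each line are the values with each of the 6 samples left out in turn. Slc1a2 lies at 1.31, Cyp2e1 at -0.26 and Cyp1a2 at -1.49, and the ticks of Tbx3 and Znrf3 lie on both sides of 0.

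The genes differed in how closely replicates agreed. Of the 8 tested genes, 4 had groups that did not overlap (Cyp1a2, Cyp2e1, Slc1a2 and Rnf43), where 28.2% of all tested genes had none. The coefficient of variation among control samples was lowest for Cyp2e1 (1.85%) and highest for Tbx3 (32.8%). Among IL-1β samples it was again lowest for Cyp2e1 (3.12%) and highest for Rnf43 (34.3%), the gene with the fewest counts of the 8.

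Pairs of genes with a shared role were set against each other within each library, so that library scaling drops out. The ratio of Cyp1a2 to Cyp2e1 counts was 1.42, 1.22 and 1.21 in control libraries and 0.494, 0.556 and 0.593 in IL-1β libraries, a log2 difference of -1.23. Cyp1a2 counts thus exceeded Cyp2e1 counts in every control library and in no IL-1β library. The ratio of Slc1a2 to Glul counts was 0.239, 0.316 and 0.235 in control and 0.585, 0.553 and 0.603 in IL-1β libraries, a log2 difference of 1.15. The ratio of Rnf43 to Znrf3 counts was 0.217, 0.125 and 0.158 in control and 0.0429, 0.107 and 0.1 in IL-1β libraries, a log2 difference of -1.07. All 3 ratios were separate between the groups, each with an exact permutation p of 0.1 (two-sided), the smallest possible here. These ratios were not among the planned results. The groups of Cyp1a2, Slc1a2 and Rnf43 did not overlap in CPM either, so the ratios largely restate the results of these genes and add no separate support. The Rnf43 ratio rests on 7 to 34 counts of Rnf43 a library.

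**Figure D4:**
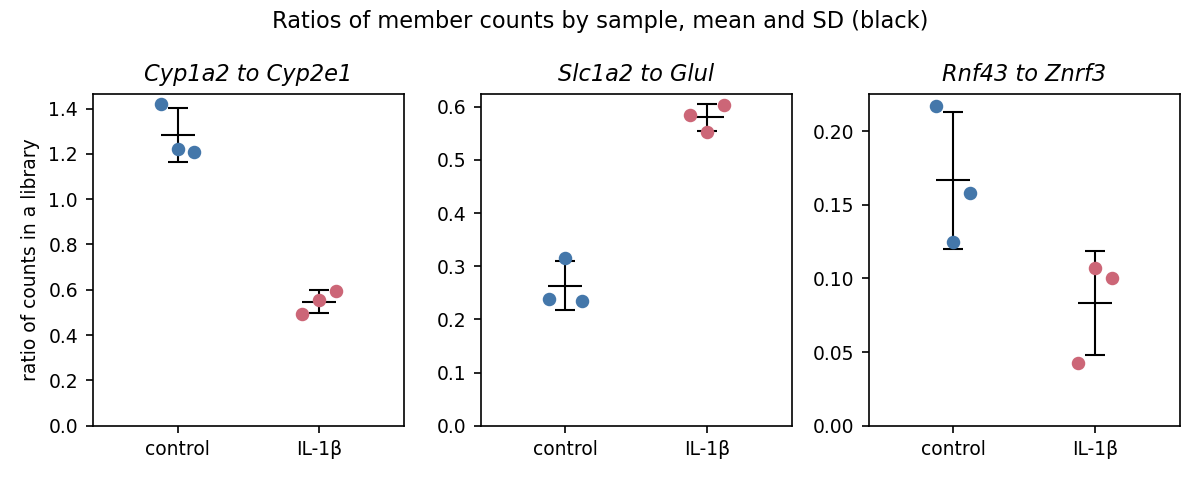
Ratio of the counts of a pair of genes within each library, on axes that start at 0, for control (blue) and IL-1β (red) libraries, with the mean and SD of the 3 libraries in black. Cyp1a2 to Cyp2e1 lies between 1.21 and 1.42 in control and between 0.494 and 0.593 in IL-1β libraries, and Slc1a2 to Glul lies between 0.235 and 0.316 and between 0.553 and 0.603.

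Transcripts of the ligands Wnt2 and Wnt9b were sparse or absent, while Rspo3 was detected in every library. Of 25 Wnt ligands, R-spondins and ligand-processing genes, 14 had no count in any library, Wnt9b among them, and Wnt2 was between 0.0939 and 1.21 CPM. Rspo3 was 9.11, 14.9 and 17.5 CPM in control and 18.8, 18.8 and 14.6 CPM in IL-1β samples (log2 fold change 0.33, adjusted p = 0.313 from edgeR). The 4 genes of the list that were tested had a median of 0.31 (0.10 without control replicate 1, 0.03 without control replicate 2 and 0.49 without control replicate 3), and 0 of them passed by edgeR, by DESeq2 or at an unadjusted p below 0.05. Of the 13 genes listed as Wnt inhibitors outside the cell or at its surface, 7 had no count. Only Kremen1, which encodes a membrane protein, was tested (log2 fold change -0.17, adjusted p = 0.696 from edgeR), so no secreted inhibitor was tested.

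Of the 17 Wnt receptors, 9 were tested, with a median of -0.04 (-0.21 to -0.01 with single samples left out), and 1 fell. This was the coreceptor Lrp5, at 13.7, 13.1 and 10.2 CPM in control and 8.77, 7.59 and 5.76 CPM in IL-1β samples (log2 fold change -0.75, adjusted p = 0.0148 from edgeR). Without control replicate 2 or without IL-1β replicate 3 no receptor passed. For its partner Lrp6 the log2 fold change was -0.23 (adjusted p = 0.0854), and for Lgr4, the R-spondin receptor of hepatocytes, it was 0.08 (adjusted p = 0.821).

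Of the 21 genes that carry or restrain the β-catenin signal, 18 were tested, 3 rose and 1 fell, with a median of 0.03 (0.01 to 0.06 with single samples left out). The β-catenin partners Bcl9 (log2 fold change 1.03, adjusted p = 0.00213 from edgeR) and Bcl9l (0.46, adjusted p = 0.00146) rose, as did Csnk1a1, a kinase that primes β-catenin for degradation (0.27, adjusted p = 0.0145), and the β-catenin inhibitor Ctnnbip1 fell (-0.30, adjusted p = 0.044). Bcl9 and Bcl9l passed under every alternative tried. Csnk1a1 did not pass with total-count scaling or without control replicate 1, Ctnnbip1 did not with DESeq2 or without control replicate 2 or 3, and neither did without IL-1β replicate 1 or 2. Ctnnb1, which encodes β-catenin, was 485 ± 27.5 CPM in control and 502 ± 14.3 CPM in IL-1β samples (SD, n = 3 each), a log2 fold change of 0.05 (adjusted p = 0.707 from edgeR).

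Other known Wnt targets also moved both ways. Of 12, 7 were tested, 2 rose and 2 fell, with a median of -0.05 (-0.21 to -0.02 with single samples left out). Cd44, a hyaluronan receptor, rose by 2.64 on the log2 scale (adjusted p = 2.9e-15 from edgeR) and Myc by 0.55 (adjusted p = 0.00518), while Prox1 fell by 0.92 (adjusted p = 0.000402) and the cyclin Ccnd1 fell by 1.10 (adjusted p = 0.0062).

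The 10 genes were set beside 22 other genes of the pericentral zone and 24 of the periportal zone. Over all tested genes, 6.97% were higher and 6.44% were lower, with a median of -0.002. Of the other pericentral genes, 18 were tested, 2 rose and 6 fell, with a median of -0.22. Aldh1a1, a retinal dehydrogenase, fell most (-2.34, adjusted p = 5.12e-15 from edgeR), the glutathione transferases Gstm1 (-0.41) and Gsta3 (0.43) moved in opposite directions (adjusted p = 0.000105 and 0.000107 from edgeR), and Cyp2c29 fell (-0.47, adjusted p = 0.00179). Gstm1, Gsta3 and Cyp2c29 have close paralogs, between which the counting could split reads. Of the periportal genes, 21 were tested, 2 rose and 6 fell, with a median of -0.19. Ctsc rose (1.89), and Hsd17b13 (-1.11) and Cdh1 (-0.85) fell, with adjusted p of 5.55e-15, 1.82e-11 and 1.77e-10 from edgeR. Without control replicate 1 the median of the other pericentral genes was -0.13 and that of the periportal genes -0.18, so that their order turned. The order also turned without control replicate 2 (-0.170 against -0.189) and without IL-1β replicate 2 (-0.166 against -0.184). The difference between the lists was not tested.

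**Figure D5:**
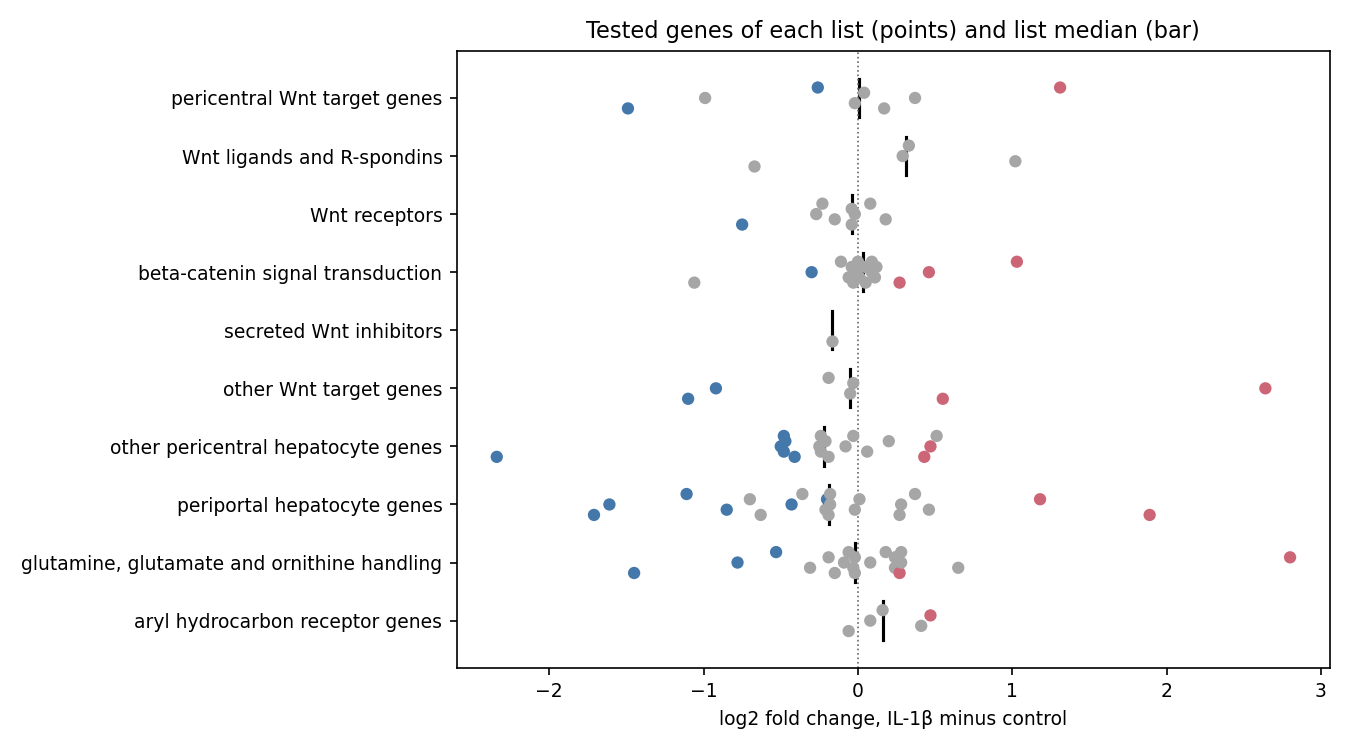
Log2 fold change (IL-1β minus control) of every tested gene in the pericentral Wnt target genes and in 9 related lists, red where higher and blue where lower at an adjusted p below 0.05 and grey elsewhere; the black bar is the median of a list, 0.01 for the pericentral Wnt target genes, -0.22 for the other pericentral genes and -0.19 for the periportal genes. These 3 lists have genes on both sides of 0.

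Glul, Oat and Slc1a2 share substrates with 23 further genes of glutamine, glutamate and ornithine handling, of which 20 were tested, 2 rose and 3 fell, with a median of -0.02 (-0.03 to 0.06 with single samples left out). Slc7a2, a carrier of arginine and ornithine, rose by 2.80 (adjusted p = 2.68e-19 from edgeR). The glutamine carrier Slc38a3 fell by 1.45 (adjusted p = 1.02e-09), Glud1, glutamate dehydrogenase, fell by 0.78 (adjusted p = 1.01e-08), and Otc of the urea cycle fell by 0.53 (adjusted p = 0.00563). For Gls2, the liver glutaminase, the log2 fold change was 0.28 (adjusted p = 0.106 from edgeR). Cyp1a2 is a target of the aryl hydrocarbon receptor, and of 10 genes of that receptor 5 were tested, 1 rose and the median was 0.16 (0.36 without control replicate 1, and 0.09 without control replicate 2 or IL-1β replicate 1). The gene that rose was Ahr itself, from 23.4, 31.5 and 27.2 to 38.1, 38.0 and 38.1 CPM (log2 fold change 0.47, adjusted p = 0.00659 from edgeR). Cyp1a1, which lies beside Cyp1a2 and responds to the same receptor, was between 0.358 and 0.939 CPM in every library and was not tested. Hnf4a, a nuclear receptor of hepatocytes, fell by 1.04 (adjusted p = 1.62e-09 from edgeR).

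Markers of other liver cells were present. The sum of 12 endothelial markers, led by Eng, Lyve1 and Cdh5, was 90.2 to 99.2 CPM in control and 87.3 to 92.3 CPM in IL-1β samples. Of 11 tested, Lyve1 rose (0.45, adjusted p = 0.0274 from edgeR), and Clec4g (-2.87, adjusted p = 1.9e-05) and Kdr (-1.49, adjusted p = 0.00511) fell. The endothelial median was -0.33 (-0.56 to -0.10 with single samples left out). Lyve1 did not pass with total-count scaling or without control replicate 1 or 3 or IL-1β replicate 2 or 3. The sum of 13 macrophage markers, mostly Cd68, was 247 to 277 against 252 to 285 CPM. Their median was 0.38 over 10 tested (0.10 to 0.52 with single samples left out). The sum of 10 stellate cell markers, mostly Dcn, was 21.7 to 25.5 against 22.8 to 28.9 CPM. Their median was 0.52 over 3 tested (0.13 to 0.51 with single samples left out). In these lists 0 genes passed by edgeR or by DESeq2, with 3 macrophage and 0 stellate genes at an unadjusted p below 0.05, while Cd74 and C1qa passed without control replicate 1. The sum of 8 cholangiocyte markers, nearly all Spp1 and Sox9, was 321 to 335 against 242 to 244 CPM. Of 3 tested, Spp1 fell (-1.20, adjusted p = 4.36e-12 from edgeR) and the median was -0.08 (-0.23 without control replicate 2 and 0.19 without control replicate 1). By DESeq2 and by limma 2 passed, with Sox9 higher (0.21, adjusted p = 0.0519 from edgeR and 0.0414 from DESeq2), and Krt19, Krt7 and Epcam stayed below 0.6 CPM. The part of these cells in the changes of the 10 genes was not tested.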

How the data were processed

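The deposited table holds, for each gene, the raw read counts of 3 control and 3 IL-1β samples, without normalization. Per the labels, the authors sequenced single-end reads of 75 nt, aligned them with Bowtie2 and used edgeR with TMM and CPM. The submitters' processing notes name mm10 and GRCm38. The counting tool, its use of strand and its handling of reads that match several genes are not given in the sources used here. The authors' normalized log2 values, fold changes and p-values were not used. Groups came from the sample titles. Nothing says that replicates came from separate mice or cultures, so p-values measure only the spread between these samples, which may be technical. The deposited description speaks of 2 samples a group but lists 3, and all were used.

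The raw counts were fitted with edgeR 4.0.16 under R 4.3.3 (filterByExpr, TMM, quasi-likelihood test, Benjamini-Hochberg over 11657 genes, threshold 0.05), checked on simulated counts with known changes. The standard error (SE) is the log2 fold change divided by the square root of F, and intervals use the t distribution with the degrees of freedom of the fit. Exact permutation and Poisson intervals used Python 3.11.15 with scipy 1.17.1, and figures matplotlib 3.10.9. Alternatives were DESeq2 1.42.0, limma 3.58.1 on log2 CPM with a pseudocount of 1, scaling by total counts or by the upper quartile, testing without the low-count filter, a minimum of 10 counts in each sample, Rn45s left out, the replicate number as a block and each sample left out. Same-numbered control and IL-1β samples deviated from their group means with correlations of 0.075, 0.027 and -0.005, and were not treated as pairs.

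The members and the 14 other gene lists were chosen with earlier results of these data known. The other lists share some genes, so their counts are not separate evidence. Among the shared genes, Ahr is in the other pericentral and the aryl hydrocarbon receptor lists, Gls2 in the periportal and glutamine lists, and Alb in the periportal and hepatocyte marker lists. The other Wnt target and other pericentral lists also share genes, and this account of shared genes is not complete. Named were the members, at most 4 genes a list with the smallest adjusted p under 0.05, the most abundant markers, and Ctnnb1, Lgr4, Lrp6, Rspo3, Wnt2, Wnt9b, Ahr, Hnf4a and Gls2. A gene that this rule selects is not reported here. Wnt5b, Kremen1, Cyp1a1, C1qa, Krt19, Krt7, Epcam, Fgfr2 and 1110028F11Rik were named after their values were seen. Gene positions are those of the table, and 75-nt stretches within the last 500 nt of GENCODE transcripts were searched in the transcripts of other genes. Promoter windows are RefSeq's on GRCm38.p6. A planned comparison of the Rnf43 and Znrf3 proteins was not run.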

Additional observations from a re-analysis of the deposited data

How the results depend on the processing

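The log2 fold changes of Cyp1a2 and Slc1a2 stayed past the threshold under the 8 alternatives with all samples (-1.55 to -1.48 and 1.21 to 1.32) and with each sample left out (-1.54 to -1.42 and 1.15 to 1.46). Cyp2e1 passed under those 8 (-0.32 to -0.26) but not without IL-1β replicate 3 (-0.24, adjusted p = 0.0625 from edgeR; -0.27 to -0.24 with each sample left out), and Oat passed only without control replicate 1 (0.54, adjusted p = 0.0338 from edgeR; 0.25 to 0.54). Glul stayed between 0.07 and 0.29 and Rnf43 between -1.20 and -0.74 with each sample left out, without passing, and Rnf43 was -0.64 with limma. Tbx3 turned sign with limma (0.02), with the replicate block (0.01) and on leaving out single samples (-0.28 to 0.13), and Znrf3 with total-count scaling (-0.01) and on leaving out single samples (-0.05 to 0.11). The number of the 10 genes that passed was 3 under the 8 alternatives and 2 to 4 with each sample left out. Rnf43 was not tested where 10 counts were required in every sample.

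Over all genes, 1563 passed, 1131 to 1596 with each sample left out. Of these calls 52.0% were higher, 39.6% with total-count scaling, under which the median of all genes was -0.055 in place of -0.002, and 45.3% with upper-quartile scaling. The replicate block gave 1671 calls and changed no call among the 10 genes. The Wnt receptor count went from 1 to 2 with upper-quartile or total-count scaling, where Lrp6 also passed, and was 0 to 1 with each sample left out. The ligand list went from 0 to 1 (Wnt5b) without control replicate 1, and the β-catenin list, at 4, was 2 to 4 with each sample left out. The causes of these changes were not tested. Depth limits Axin2 and Lgr5, at up to 4 counts a library, and Rnf43, at 7 to 34.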
